A study of Mus musculus with 16 samples.

Results

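The cytosolic ribosomal protein (RP) genes encode the protein part of the ribosome that works outside mitochondria. They were taken from a mouse RNA-seq count table by their symbols, Rpl and Rps followed by a number, Rplp0 to Rplp2 and Rpsa. Rows with a pseudogene symbol (-ps) and the Rps6k kinases were left out. The rule found 89 of 52997 gene symbols, 53 named for the large and 36 for the small ribosomal subunit. Among the members, 10 are paralogue copies named after another member (Rpl3l, Rpl6l, Rpl7l1, Rpl10l, Rpl22l1, Rpl32l, Rpl39l, Rps4l, Rps12l1 and Rps27l). GENCODE M21 annotates 83 members as protein-coding and 6 as processed pseudogenes (Rpl6l, Rpl32l, Rps3a2, Rps3a3, Rps4l and Rps12l1), the Rps4l row as a transcribed one.

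The libraries came from mice of 6 to 8 weeks on a B6 background. In Tg mice the T cells carried the mTreg24 T cell receptor (TCR) transgene, and WT mice lacked it. All regulatory T cell (Treg) donors carried a Foxp3 GFP reporter, with which Tregs were sorted: Vβ8+ Tregs from Tg mice and total Tregs from WT mice, so genotype and gate cannot be told apart. The Treg groups, with 2 libraries each, were Tg and WT Tregs of skeletal muscle 3 days after cardiotoxin injury, Tg spleen Tregs of injured and of uninjured mice, and WT spleen Tregs, whose donors the design text describes as injured. Whole muscle was collected 8 days after cardiotoxin from 3 Tg and 3 WT samples. The labels do not say whether replicates are separate animals or pools, and the p-values given here therefore cover differences among the sequenced samples, possibly technical ones.

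A ribosome carries each of its proteins in about equal numbers, and cells keep RP mRNAs at high levels together. Most mammalian RP mRNAs begin with a cytosine and a short pyrimidine tract, the 5′ terminal oligopyrimidine (TOP) motif, through which mTORC1 and the repressor Larp1 control their translation. Quiescent T cells hold few ribosomes and activated, growing T cells make many, so RP levels are often read together with growth and Myc activity.

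RefSeq start sites (GRCm38.p6) were found for 64 of the 89 members. A run of at least 8 C or T letters lay within 15 bases on either side of a start in 28 of these 64 genes (43.8%), and in 3732 of 26961 other genes (13.8%). With at least 10 letters the shares were 32.8% and 6.2%. The windows below show the longest run of C or T of any length, in capitals, for members described later, at the start where it is longest; each begins 15 bases before the start.
Rpl12 (chr2:32961697-32961726, plus strand): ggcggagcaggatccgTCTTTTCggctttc
Rpl35a (chr16:33056467-33056496, plus strand): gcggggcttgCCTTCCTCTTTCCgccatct
Rps24 (chr14:24490663-24490692, plus strand): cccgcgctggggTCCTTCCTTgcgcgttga
Rps6 (chr4:86857353-86857382, minus strand): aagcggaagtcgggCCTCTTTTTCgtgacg
Rps27 (chr3:90213634-90213663, minus strand): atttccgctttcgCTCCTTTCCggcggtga
Rpl39 (chrX:37085208-37085237, minus strand): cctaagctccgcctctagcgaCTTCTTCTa
Rps3 (chr7:99483695-99483724, minus strand): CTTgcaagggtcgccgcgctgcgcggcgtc
Rpl3l (chr17:24727811-24727840, plus strand): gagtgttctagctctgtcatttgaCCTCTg

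In these windows Rpl35a had the longest run, while Rpl12, Rps3 and Rpl3l had runs shorter than 8 letters. In the 300 bases around the start (250 before and 50 after, both strands), CCGGAAG, a letter pattern bound by ETS factors, stood in 35.5% of 76 RP promoters and in 8.8% of 32775 others. AAGATGG, the core letters of YY1 sites, stood in 15.8% and 6.3%. TATAAA stood in 10.5% and 13.6%, and CAGCTG, an E-box, in 5.3% and 16.3%. A letter match is a description of the sequence and not a bound site.

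The 10 Treg libraries held 1986700 to 9116800 counts each, and whole muscle (6 libraries) held 5095999 to 7075420. Between 85 and 87 of the 89 members had counts in each library. All 6 Treg markers (Foxp3, Il2ra, Ctla4, Ikzf2, Cd4 and Cd3e) were present in every Treg group, at a summed 6117 to 7218 CPM (a gene's count scaled to a common library total) in muscle Tregs and 4410 to 4663 CPM in spleen Tregs. The 14 muscle fibre markers summed to 236437 to 261472 CPM in whole muscle and to 242 to 594 CPM in Tregs. The WT spleen library of replicate 2 stood apart by the immunoglobulin gene Igkc, at 1864 CPM, against 15.6 to 63.3 CPM in the other Treg libraries. The other 9 B cell markers summed to 143 CPM in it and to 147 CPM in an injured Tg spleen library, so they did not set it apart.

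Among the Treg groups, RP mRNA took the smallest share of counts in Tg muscle and the largest in WT spleen. RP genes made up 3.14% and 2.88% of counts in the Tg muscle Treg libraries and 3.70% and 3.38% in the WT muscle Treg libraries. They made up 4.26% and 3.70% in injured Tg spleen, 4.03% and 3.54% in uninjured Tg spleen, and 5.52% and 4.88% in WT spleen Tregs. Every muscle Treg library was below both WT spleen libraries, and the Tg muscle libraries were below both spleen groups of Tg mice. The means were 3.01 ± 0.186% in Tg muscle, 3.54 ± 0.225% in WT muscle, 3.98 ± 0.397% in injured Tg spleen, 3.79 ± 0.350% in uninjured Tg spleen and 5.20 ± 0.453% in WT spleen (SD, n = 2 each). Of neighbours in this order, injured Tg spleen overlapped uninjured Tg spleen, and uninjured Tg spleen overlapped WT muscle. Replicate 1 had the higher share in each Treg group. Among libraries of the same replicate number, the groups stood in the order of the means. The SDs and overlaps thus include a difference between replicate numbers, whose source was not tested. Counting error was small beside these differences: the exact 95% binomial interval of the shallowest library, WT spleen replicate 1, was 5.489% to 5.553%. Such intervals cover counting error only, since reads carried no molecular identifiers. In whole muscle the share was 1.15%, 1.14% and 1.15% in Tg and 1.12%, 1.13% and 1.08% in WT libraries.

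The ratio of muscle to spleen share was 0.681 in WT mice and 0.756 in Tg mice with injury, and that of Tg to WT was 0.849 in muscle and 0.765 in spleen. They stayed within 0.677 to 0.687, 0.753 to 0.760, 0.848 to 0.861 and 0.763 to 0.770, in that order, when mitochondrial genes, receptor genes or the 20 most abundant other genes were taken out of the total, or when pseudogenes, further ribosome components such as Fau and Rack1, or paralogue copies were added or left out. These shares are of library totals, on which the median of all genes was also lower in muscle than in spleen Tregs, as given below. For replicate 1 and replicate 2, muscle to spleen was 0.671 and 0.693 in WT and 0.737 and 0.778 in injured Tg mice. Tg to WT was 0.848 and 0.85 in muscle and 0.772 and 0.758 in spleen. Counts of large subunit genes divided by those of small subunit genes, both without paralogue copies, ran in the opposite order of groups from the share. This ratio was 1.198 and 1.188 in Tg muscle Tregs and 1.179 and 1.168 in WT muscle Tregs. It was 1.126 and 1.125 in injured Tg spleen, 1.136 and 1.134 in uninjured Tg spleen, and 1.110 and 1.103 in WT spleen Tregs. All 4 muscle Treg libraries lay above all 6 spleen libraries, so muscle Tregs had relatively less small subunit mRNA.

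**Figure D1:**
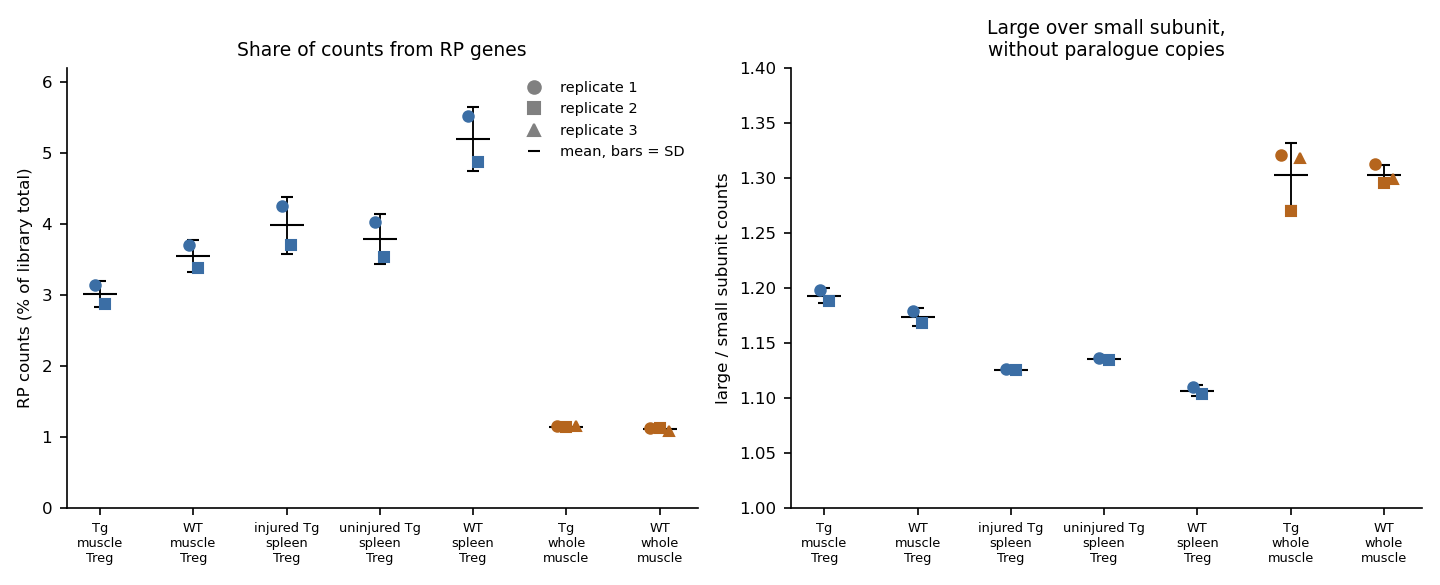
RP genes as a percentage of all counts (left) and the ratio of large to small subunit RP counts without paralogue copies (right, axis from 1) in each library of the 7 groups; points are libraries, the horizontal line is the mean and bars are the SD. WT spleen Tregs have the highest share, at 5.52% and 4.88%, and the lowest subunit ratio, while Tg muscle Tregs have the lowest share of the Treg groups, at 3.14% and 2.88%.

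WT muscle Tregs had lower RP mRNA than WT spleen Tregs for genes of both ribosomal subunits, and no member was called higher. Genes were tested with edgeR's quasi-likelihood test on counts with trimmed mean (TMM) scaling, in a fit of all 10 Treg libraries, and called at a Benjamini-Hochberg adjusted p under 0.05 over all 13188 genes tested; 83 members passed the low-count filter. Of these, 34 fell, while 6.87% of all genes tested fell, and 0 rose, while 9.38% of all genes rose. Unadjusted, 49 members (59.0%) and 29.3% of all genes had p under 0.05; DESeq2 called 35 members and limma-voom 36. The median log2 change was -0.40 over the tested members and -0.04 over all genes, and 79 of the 83 members had a negative value. Of large subunit genes 14 of 49 fell (median -0.32), and of small subunit genes 20 of 34 (median -0.52). CPM values are scaled by the library total and log2 changes by TMM, so a ratio of CPM values is not the fitted change. In CPM the libraries did not overlap, muscle lower, for 73 of the 83 members and 38.9% of all genes, and muscle higher for 2 members and 18.7% of all genes.

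Rps19, a small subunit protein whose gene is the one most often mutated in people with Diamond-Blackfan anaemia, had 422 and 359 CPM in WT muscle and 755 and 759.7 CPM in WT spleen Tregs. The groups did not overlap, and Rps19 fell by 0.78 ± 0.160 on the log2 scale (SE, adjusted p = 0.00408, edgeR). Rpl35a of the large subunit had 197 and 185 CPM in WT muscle and 351 and 376 CPM in WT spleen Tregs, and fell by 0.75 ± 0.129 (adjusted p = 0.00118, edgeR). Both genes, and Rps20 with a log2 change of -0.75, kept their call when any one of the 4 libraries was left out. The highest adjusted p among these was 0.0449, for Rps20 (edgeR). Rps29 had a change of -0.74 and lost its call without WT spleen replicate 1 (adjusted p = 0.179, edgeR) and without either WT muscle library.

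Other members of known function had smaller changes, and those of Rpl12 and Rpl5 were among the called ones. Rpl10, Rps27 and Rps4x were called lower as well. Of the 4 single-library omissions, Rpl10 kept its call in 1, Rps27 in 3 and Rps4x in 0. Rpl12, at the base of the stalk that recruits elongation factors, fell by 0.68 ± 0.131 (adjusted p = 0.00251, edgeR). Rpl5, which with Rpl11 joins a small ribosomal RNA and can bind Mdm2, fell by 0.60 ± 0.132 (adjusted p = 0.00641, edgeR). Rpl11 itself had a log2 change of -0.31 ± 0.165 and no call (adjusted p = 0.228, edgeR). Rps6, the substrate of S6 kinase, had 385 and 309 CPM in WT muscle and 523 and 485 CPM in WT spleen Tregs, a change of -0.36 ± 0.136 that missed the threshold (adjusted p = 0.0866, edgeR). Rps3, the most abundant small subunit member by counts, had 2001 and 1869.5 CPM in WT muscle and 2655 and 2322 CPM in WT spleen Tregs (log2 change -0.18 ± 0.123, adjusted p = 0.355, edgeR). Rpl4, of the exit tunnel and by counts the large subunit member with the highest mean over the 10 Treg libraries, had a change of -0.32 ± 0.116 (adjusted p = 0.0732, edgeR).

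Some members had values near 0 in the same comparison. Rpl39, a very short protein of the exit tunnel, had 222 and 234 CPM in WT muscle and 263 and 251 CPM in WT spleen Tregs, and a log2 change of 0.01 ± 0.132 (adjusted p = 0.967, edgeR). Its CPM did not overlap between the groups, but the TMM-scaled change was near 0. Rplp0 of the stalk (-0.06 ± 0.131) and Rpsa, also known as the laminin receptor (-0.04 ± 0.159), were close to it (adjusted p = 0.800 and 0.909, edgeR). The spread over the tested members was thus wide, with the middle 50% between -0.58 and -0.23, while the middle 50% of all genes lay between -0.59 and 0.40. A run of at least 8 C or T at the start was present in 10 of 25 called members with a RefSeq start (40.0%) and in 17 of 36 uncalled ones (47.2%).

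**Figure D2:**
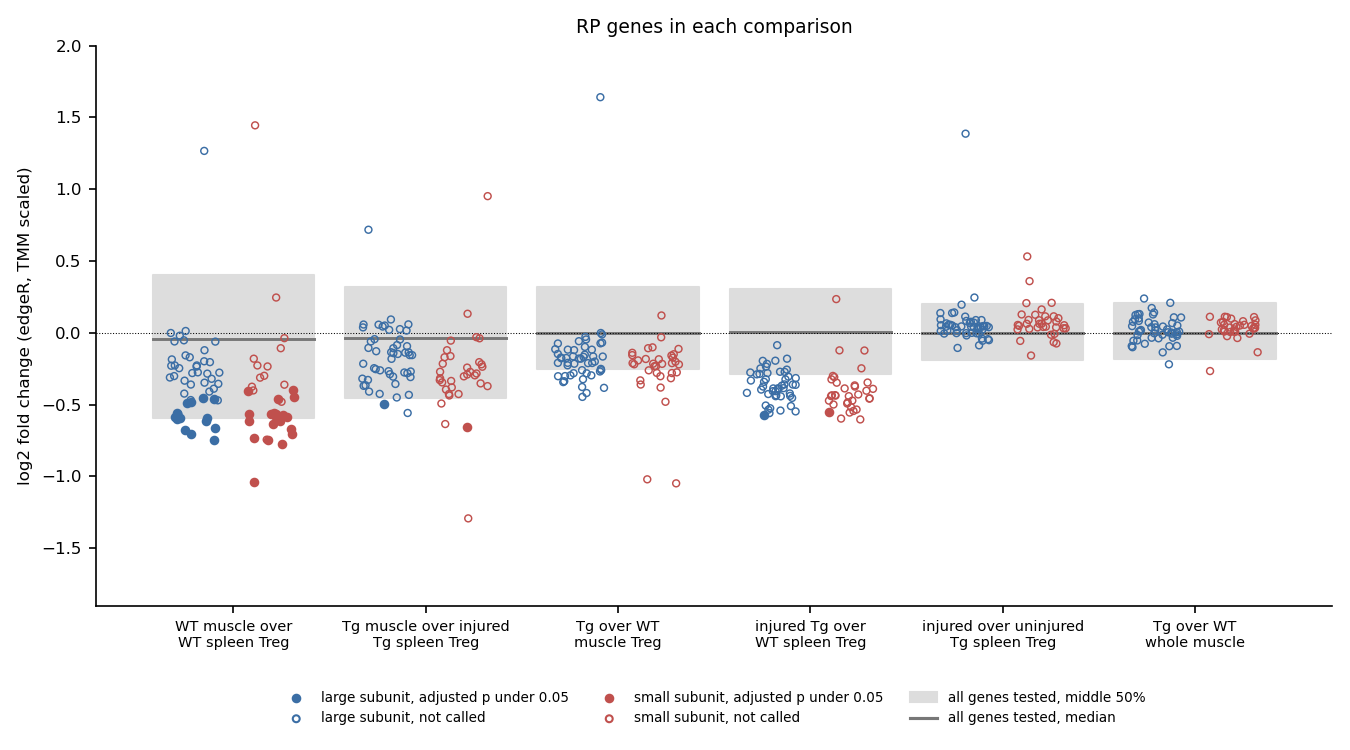
Log2 fold changes of the tested RP genes in 6 comparisons, large subunit left and small subunit right within each; filled points have an adjusted p under 0.05, grey boxes span the middle 50% of all genes tested and grey lines are their median. In WT muscle against WT spleen Tregs 34 members are filled and all of them lie below 0, and in Tg against WT whole muscle none is filled. The highest large subunit value in injured Tg against WT spleen Tregs, 2.19 and not called, lies above the axis and is not shown.

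**Figure D3:**
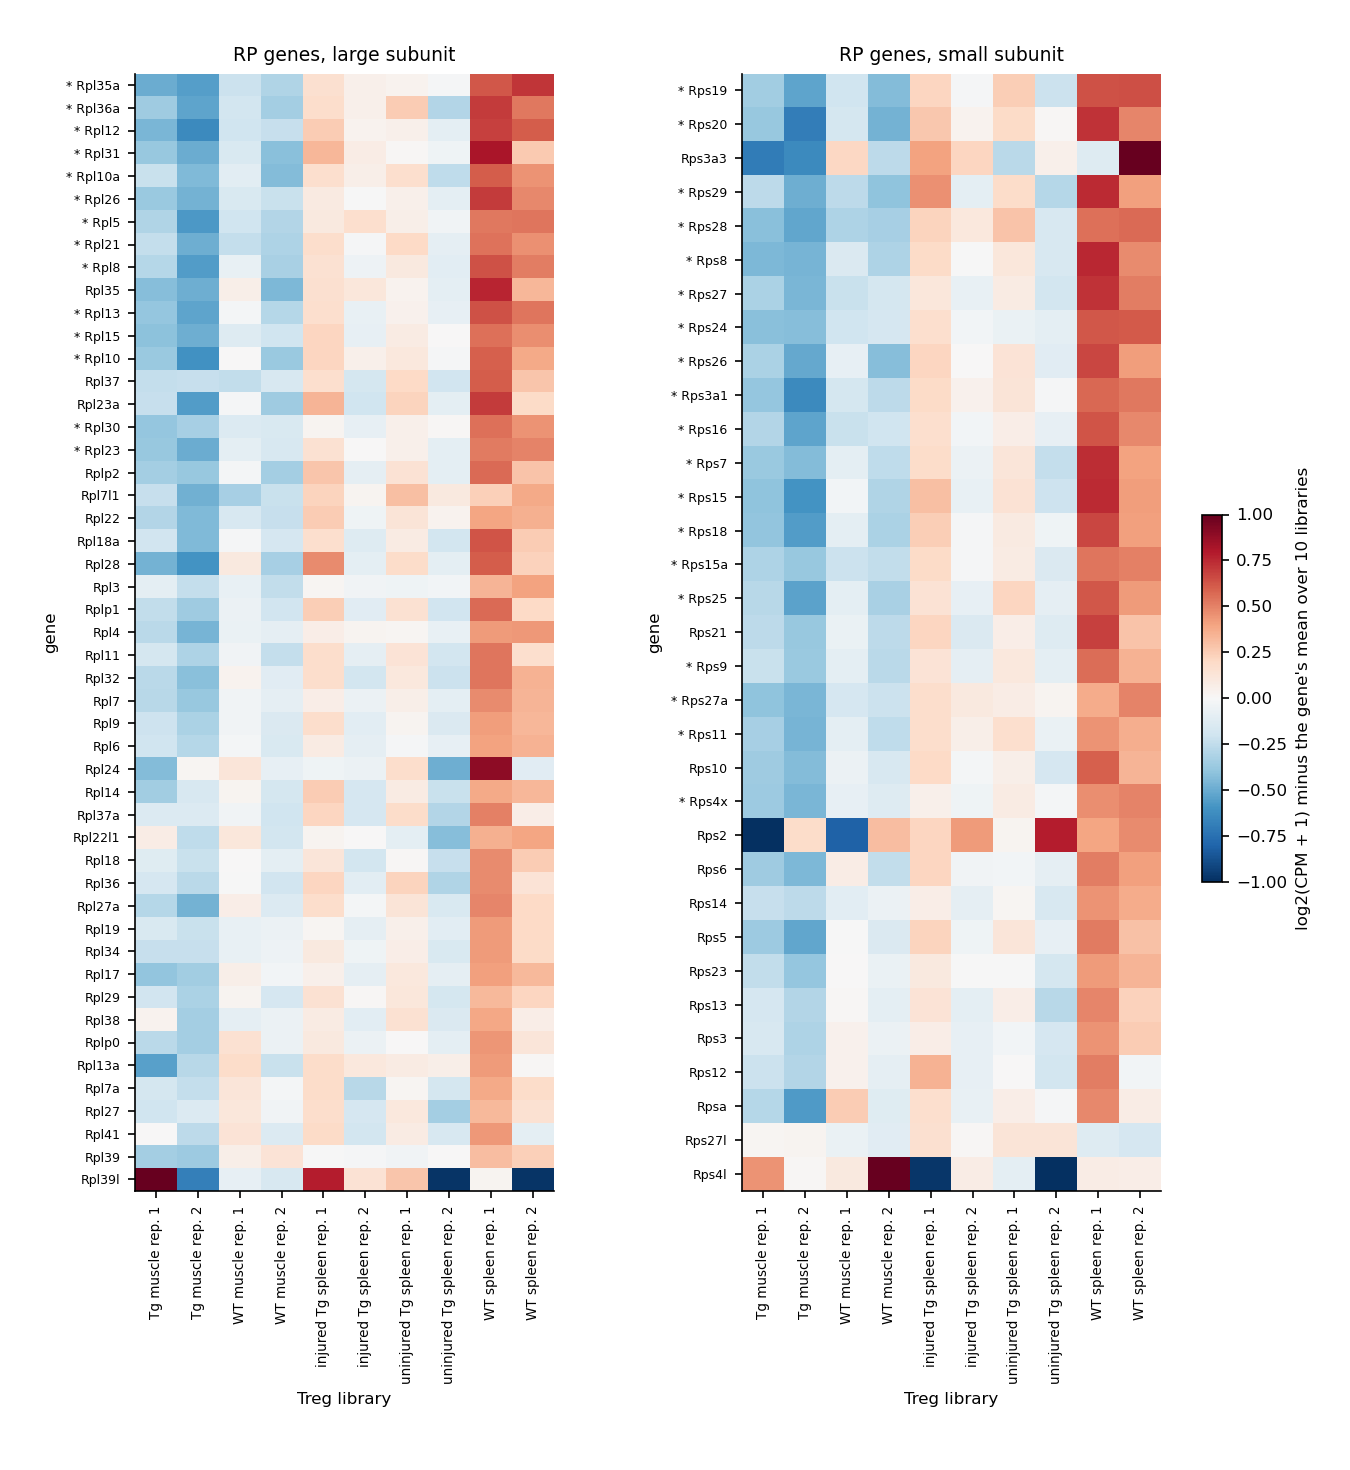
Log2(CPM + 1) of tested RP genes minus each gene's mean over the 10 Treg libraries, with libraries in columns, a panel for each subunit, and genes in rows ordered by the change in WT muscle against WT spleen Tregs; asterisks mark members that fell in that comparison. Both WT spleen columns are high for most genes and both Tg muscle columns are low, and rows such as Rps2, Rps4l and Rpl39l vary between libraries of a group.

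The count of called members depended on single libraries and on the scaling. It was 11 without WT spleen replicate 1, 16 without WT muscle replicate 2, 23 without WT spleen replicate 2 (the library with the Igkc counts) and 29 without WT muscle replicate 1, with 0 rising each time. With library totals alone as scaling 56 members fell, but the median of all genes then stood at -0.24; relative to the median of all genes the RP median was -0.36 with either scaling. Immediate early and heat shock markers moved with tissue: the 20 genes summed to 11099 to 14117 CPM in muscle Tregs and to 3035 to 3594 CPM in spleen Tregs, with 3 of them (Atf3, Hspa1a and Hspa1b) at 0 in WT spleen. Markers of other spleen cells also moved with tissue. Of 8 tested B cell markers all had a negative value in WT muscle against WT spleen Tregs, and 2 (Ighd and Ms4a1) fell. Of 11 tested macrophage and monocyte markers 9 had a negative value, 2 (Adgre1 and Apoe) fell and Itgam rose; the 12 listed genes summed to 263 to 443 CPM in WT muscle and 436 to 449 CPM in WT spleen Tregs. The part of these 3 lists in the RP result was not tested.

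Reads of RP genes can be shared with processed pseudogenes, of which the table lists 288 rows by symbol (ending in -ps and a number). Pseudogenes under other names were not counted. Members were therefore split by the share of their 25-letter words found in no other gene's GENCODE transcript. Of 70 tested members with at least 50% such words 30 fell in WT muscle Tregs (median log2 change -0.40), and of 13 with fewer 4 fell (median -0.41). Rps2, with 10 pseudogene rows and 48.9% unique words, had 104 and 227 CPM in WT muscle and 241 and 255 CPM in WT spleen Tregs, and its level is uncertain. Rpl24 (46.8% unique) is also uncertain, at 9.77 to 20.6 CPM in these libraries; both were chosen after their values were seen. By transcript length, members under 1 kb had a median of -0.41 (n = 51) and other protein-coding genes of that length one of 0.04 (n = 553). Between 1 and 2 kb the medians were -0.35 (n = 23) and 0.06 (n = 2123).

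Tg muscle Tregs also had lower RP values than Tg spleen Tregs of injured mice, but few members passed the test. Of 83 tested members 2 fell, Rpl12 among them, and 0 rose, while 2.55% of all genes fell, 4.83% rose and 7.38% were called in either direction. Unadjusted, 22 members (26.5%) and 20.5% of all genes had p under 0.05. CPM did not overlap, muscle lower, for 71 members and 40.9% of all genes, and muscle higher for 0 members and 16.4% of all genes. Of the markers of other cells, 2 of 8 B cell and 5 of 11 macrophage and monocyte genes fell as well, and their part was not tested. The median log2 change was -0.25, against -0.04 over all genes, and 70 members had a negative value. Rpl12 had 394 and 348 CPM in Tg muscle, against 645 and 556 CPM in injured Tg spleen Tregs, without overlap, and fell by 0.50 ± 0.131 (adjusted p = 0.0311, edgeR). The count was 0 without either Tg muscle library or without injured spleen replicate 1, and 1 without injured spleen replicate 2. It was 4 in a fit of these groups alone and 30 with library totals alone, where the median of all genes was again -0.24.

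The tissue comparisons in Tg and in WT mice share no library, though they share a fit. In 69 of 83 members both values were negative, and in 70 the WT value was the more negative one. Across 77 tested members, paralogue copies and annotated pseudogenes left out, the changes had a Pearson correlation of 0.68, given as a description since members share libraries and scaling. The difference between the tissue effects (Tg minus WT) was tested itself: its median was 0.17 over the members and -0.01 over all genes, and 0 members were called, by edgeR, DESeq2 or limma-voom. With edgeR 0.136% of all genes were called, 0.0531% higher and 0.0834% lower. Unadjusted, 1 member (1.2%) and 7.93% of all genes had p under 0.05 (edgeR), a smaller share among the members. This member, Rpl3, had a difference of 0.39 ± 0.162 (adjusted p = 0.572, edgeR). Rpl3, which lines the peptidyl transferase centre, had 757 and 688 CPM in Tg muscle and 821 and 794 CPM in injured Tg spleen, and 770.3 and 686 CPM in WT muscle and 1025 and 1074 CPM in WT spleen Tregs.

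**Figure D4:**
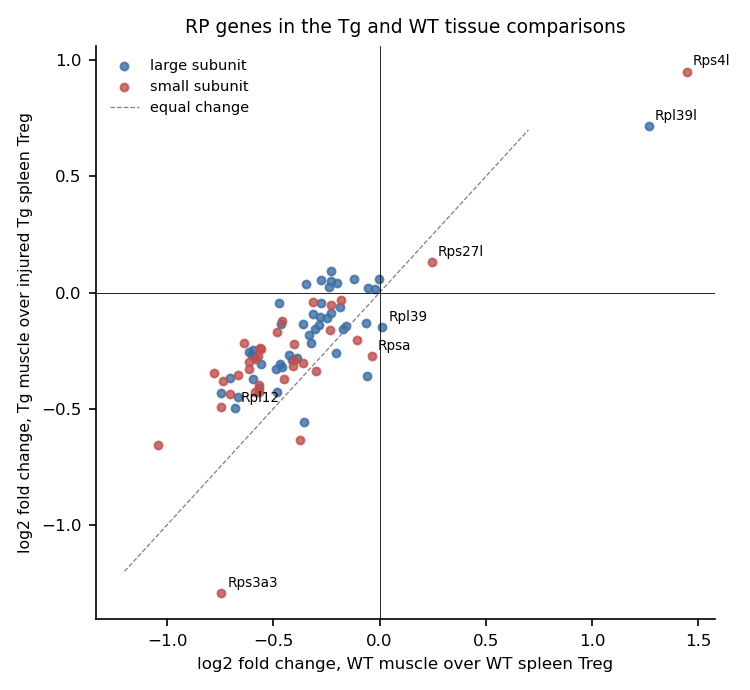
Log2 fold change of each of the 83 tested RP genes in WT muscle over WT spleen Tregs (x axis) and in Tg muscle over injured Tg spleen Tregs (y axis); each point is a gene and the dashed line marks equal change. Rpl12 is below 0 on both axes, and the points at the upper right, Rps4l and Rpl39l, are copies with few counts.

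Tg Tregs had lower RP values than WT Tregs within each tissue, but 0 members passed the test in muscle and 2 in spleen. In muscle 81 of 83 tested members had a negative value, with a median log2 change of -0.21 against -0.01 over all genes. Here 0 members were called, and 0.318% of all genes were, 0.121% higher and 0.197% lower; 12 members (14.5%) and 8.74% of all genes had an unadjusted p under 0.05 by edgeR, and DESeq2 and limma-voom called 0. The lowest adjusted p was that of Rpl39, which had 168 and 166 CPM in Tg muscle and 222 and 234 CPM in WT muscle Tregs, without overlap (log2 change -0.45 ± 0.132, adjusted p = 0.259, edgeR). CPM did not overlap, Tg lower, for 53 members and 18.7% of all genes, and Tg higher for 1 member and 17.7% of all genes. Muscle fibre markers summed to 549 to 594 CPM in Tg and 288 to 352 CPM in WT muscle Tregs, nearly all of it from Ttn and Neb. The other 12 summed to 27.9 to 29.5 CPM in Tg and 24.6 to 25.3 CPM in WT muscle Tregs. Of the 7 tested, Ttn rose and 4 had a positive value; their part in the RP values was not tested.

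In spleen, injured Tg Tregs had a negative value against WT Tregs in 81 of 83 tested members, with a median of -0.39 against 0.00 over all genes. The 2 members that fell were Rpl35a and Rps24, while 0.417% of all genes fell, 0.887% rose and 1.3% were called in either direction. CPM did not overlap, Tg lower, for 63 members and 20.8% of all genes, and Tg higher for 2 members and 22.3% of all genes. Of 7 tested muscle fibre markers Ttn rose, at 245 and 198 CPM in injured Tg and 66.9 and 74.2 CPM in WT spleen Tregs, and 4 had a negative value. The list without Ttn and Neb summed to 30.4 to 35.9 CPM in injured Tg and 63.7 to 64.4 CPM in WT spleen Tregs, and the part of these genes was not tested. Rpl35a had 255 and 236 CPM in injured Tg spleen, against 351 and 376 CPM in WT spleen Tregs, and fell by 0.58 ± 0.129 (adjusted p = 0.0428, edgeR). Rps24 had 449.6 and 394 CPM in injured Tg spleen, against 617 and 613 CPM in WT spleen Tregs, and fell by 0.55 ± 0.124 (adjusted p = 0.0429, edgeR). Unadjusted, 53 members (63.9%) and 10.8% of all genes had p under 0.05 (edgeR). The count was 0 without any one of the 4 libraries, 10 with DESeq2 and 4 with limma-voom, and 0 without robust dispersion. The muscle comparison in Tg mice and the spleen comparison with WT mice share the injured Tg spleen libraries, and the spleen comparison shares the WT spleen libraries with the WT tissue comparison, so the values are not independent.

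No RP gene was called between Tg spleen Tregs of injured and of uninjured mice. Of 83 tested members 0 were called by edgeR, DESeq2 or limma-voom, and 0 of 13188 genes (0%) were called. Unadjusted, 0 members and 1.79% of all genes had p under 0.05 (edgeR). The median log2 change, injured over uninjured, was 0.05, and the middle 50% of members lay between 0.02 and 0.09. CPM did not overlap, injured higher, for 11 members and 18.5% of all genes, and injured lower for 0 members and 13.2% of all genes. A positive log2 change was found for 64 of the 83 members and for 6563 of all 13188 genes. The RP share of counts, injured over uninjured, was 1.056 in replicate 1 and 1.045 in replicate 2, and this small shift was not tested. Rpl12 had 645 and 556 CPM in injured and 562 and 507 CPM in uninjured Tg spleen Tregs, a change of 0.14 ± 0.131 (adjusted p = 1, edgeR).

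Among the paralogue copies, Rpl3l was abundant in whole muscle and at or near 0 in Tregs. Rpl3l, a copy of Rpl3 known from striated muscle, had 3271, 3906 and 3826 counts in Tg and 4492, 3717 and 3092 counts in WT whole muscle libraries. In the 10 Treg libraries it had between 0 and 2 counts, at or under the 3 counts that a count of 0 allows, and it was not tested there. Per kilobase of its annotated transcript (1375 bases), Rpl3l stood at 391, 437 and 393 CPM per kb in Tg and at 473, 399 and 441 CPM per kb in WT whole muscle. Rpl3 (1351 bases) stood at 76.2, 53.1 and 57.4 CPM per kb in Tg and at 41.6, 63.6 and 52.9 CPM per kb in WT whole muscle. Within a library Rpl3l was therefore 5.13 to 8.24 times Rpl3 in Tg and 6.26 to 11.4 times in WT whole muscle, on the per-kb scale. In Tregs Rpl3 had 508 to 795 CPM per kb. No 25-letter word of Rpl3l was found in another gene's transcripts. For Rpl3 61.5% of the words were unique in this way, and the table lists 2 pseudogene rows of it. Reads shared with other genes could move the level of Rpl3 and thus the ratio, which was not tested. Whole muscle mixes fibres and other cells, and in bulk tissue a larger share of cells and more RNA per cell cannot be told apart.

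The 250 bases before the RefSeq start of Rpl3l, shown because Rpl3l is the member that marks whole muscle here, hold a CAGCTG (capitals) that begins 20 bases before the start (chr17:24727576-24727825, plus strand, GRCm38.p6).
Rpl3l upstream: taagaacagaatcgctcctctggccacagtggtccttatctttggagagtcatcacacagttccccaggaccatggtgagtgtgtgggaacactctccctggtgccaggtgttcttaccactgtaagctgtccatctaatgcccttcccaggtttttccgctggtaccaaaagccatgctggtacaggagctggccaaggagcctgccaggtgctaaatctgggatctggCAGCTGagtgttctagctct

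Rps27l, a copy of Rps27 induced by p53 in human cells, was present in every library. It had 110.2 and 109.9 CPM per kb in Tg muscle, 103 and 100.2 in WT muscle, 121 and 109 in injured Tg spleen and 98.9 and 96.1 CPM per kb in WT spleen Tregs. Rps27 itself had 1784 and 1849 CPM per kb in WT muscle and 3446 and 2978 CPM per kb in WT spleen Tregs, and fell by 0.64 ± 0.141 on the log2 scale of the fit (adjusted p = 0.00660, edgeR), a call lost without WT spleen replicate 1 (adjusted p = 0.0607, edgeR). Rps27l had a change of 0.25 ± 0.193 (adjusted p = 0.435, edgeR). The ratio of Rps27l to Rps27 per kb was 0.054 to 0.058 in WT muscle and 0.029 to 0.032 in WT spleen Tregs. In whole muscle it was 0.439 to 0.532 in Tg and 0.440 to 0.503 in WT libraries, well above all Treg libraries.

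Rpl22 takes part in the development of αβ T cells in mice, and its copy Rpl22l1 ran at 0.381 to 0.432 of its per-kb level in Tg muscle and 0.346 to 0.405 in WT muscle Tregs. The ratio was 0.286 to 0.347 in injured Tg spleen, 0.243 to 0.285 in uninjured Tg spleen and 0.326 to 0.344 in WT spleen Tregs. Rpl22 had a log2 change of -0.39 ± 0.145 (adjusted p = 0.0824) and Rpl22l1 one of -0.23 ± 0.201 (adjusted p = 0.487) in WT muscle against WT spleen Tregs by edgeR. Rpl7l1 had 67.2 and 72.6 CPM in WT muscle and 100.2 and 111 CPM in WT spleen Tregs, without overlap (-0.41 ± 0.183, adjusted p = 0.150, edgeR). The other copies had few counts. Rps4l had 3 to 133 counts a library, Rpl39l 0 to 15, Rpl10l 1 count in 1 library, and Rps12l1 none in any of the 16.

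**Figure D5:**
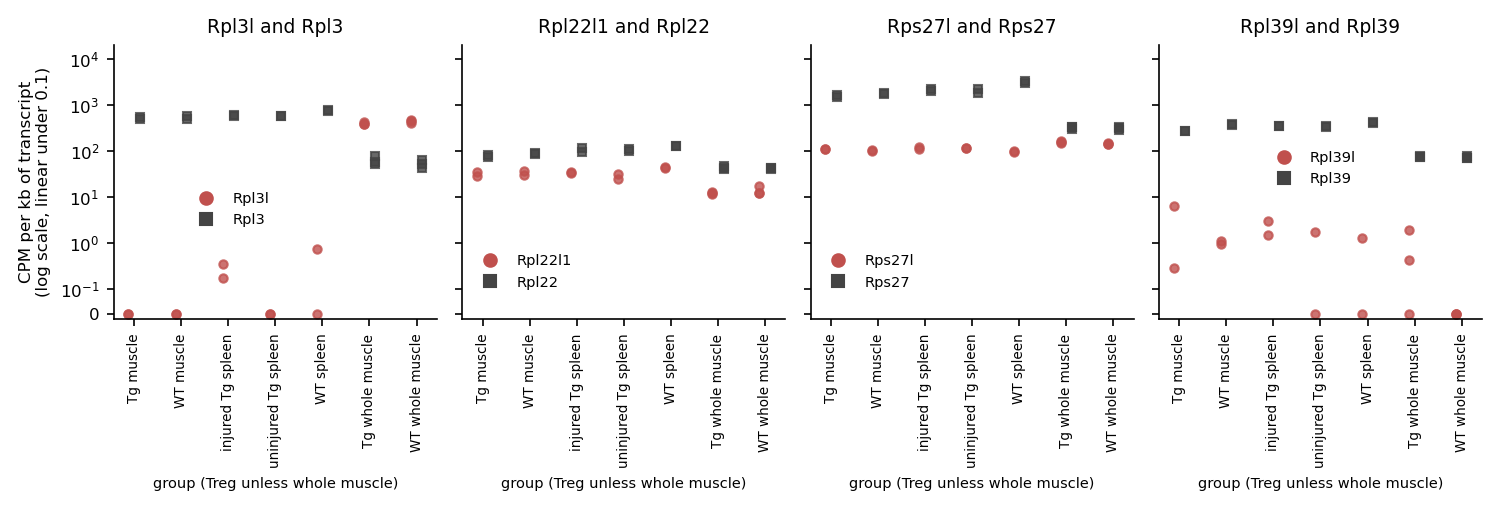
Levels of 4 paralogue copies (circles) and of the genes they are named after (squares) in each library by group, in CPM per kb of annotated transcript on a log axis that is linear under 0.1. Rpl3l is above Rpl3 in all 6 whole muscle libraries and at or near 0 in all Treg libraries, and Rps27l stays between 96.1 and 121 CPM per kb in Tregs.

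RP genes did not differ detectably between Tg and WT whole muscle. Of 82 tested members 0 were called by edgeR, DESeq2 or limma-voom, while 4 of 12377 genes (0.0323%) were called. Unadjusted, 0 members and 4.83% of all genes had p under 0.05 (edgeR). The median log2 change, Tg over WT, was 0.03, with the middle 50% of members between -0.01 and 0.08. Rpl3l had a change of -0.14 ± 0.111 and Rpl3 one of 0.21 ± 0.154 (adjusted p = 0.994 each, edgeR), and the libraries overlapped for both. CPM did not overlap, Tg higher, for 9 members and 5.77% of all genes, and Tg lower for 0 members and 3.86% of all genes. Rpl4 had 653, 609 and 678 CPM in Tg and 667, 651 and 593 CPM in WT whole muscle. The large to small subunit ratio without copies was 1.30 ± 0.029 in Tg and 1.30 ± 0.009 in WT whole muscle (SD, n = 3 each), above that of every Treg library.

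Genes that work with the ribosome moved less uniformly in WT muscle against WT spleen Tregs. Of 51 tested ribosome biogenesis genes 6 fell and 1 rose, with a median log2 change of -0.32; of all genes 6.87% fell and 9.38% rose, to which the counts of each list below compare. Mdn1, an ATPase that remodels large subunit precursors, fell by 1.43 ± 0.229 (adjusted p = 0.000648, edgeR). Utp20 of the small subunit processome fell by 1.28 and Tsr1, a late small subunit factor, by 0.82. Polr1d, a subunit of RNA polymerases I and III, rose by 0.55. Dkc1, Nop10 and Nop56, which modify ribosomal RNA, made up the rest of those that fell. In Tg muscle against injured Tg spleen Tregs, 1 of the 51, Tsr1, fell, and the median was -0.03.

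Of 31 genes of the initiation list, which includes the repressors Eif4ebp1 and Eif4ebp2, 22 had a positive value, and the median was 0.18. Eif1, which guards start codon choice, rose by 0.58 ± 0.134 (adjusted p = 0.00850, edgeR) and Eif4b, a helper of the Eif4a helicase, fell by 0.44. Of 9 tested genes of the elongation list, which includes genes that are not factors, such as Eef2k, 1 fell, Eef1g, by 0.55. Eef1a1, the most abundant, had a change of -0.05 ± 0.111 (adjusted p = 0.797, edgeR). Ribosome components outside the symbol rule had no call: Fau had a change of 0.00 ± 0.166 and Rack1 one of -0.09 ± 0.127. Of 77 tested mitochondrial ribosome genes, which belong to a separate ribosome, 2 fell (Mrps27 and Mrps9) and 2 rose (Mrpl4 and Mrpl33), with a median of -0.09. Of 44 tested rows with an RP pseudogene symbol 0 were called by edgeR. Of them 0 had an unadjusted p under 0.05, while 29.3% of all genes did.

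The list of TOP and mTOR regulators, to which Myc antagonists were added, held the gene with the highest change of these lists. Mxd1, a Myc antagonist, had 652 and 1033 CPM in WT muscle, against 206 and 211 CPM in WT spleen Tregs, and rose by 2.21 ± 0.360 (adjusted p = 0.00620, edgeR). In Tg mice it had 681 and 1333 CPM in muscle, against 132 and 150.3 CPM in injured spleen Tregs, and rose by 3.03 ± 0.371 (adjusted p = 0.00254, edgeR). Sesn1, an inhibitor of mTORC1, had 204 and 248 CPM in WT muscle, against 394 and 461 CPM in WT spleen Tregs, and fell by 0.73 ± 0.161 (adjusted p = 0.00636, edgeR). It fell by 0.92 ± 0.162 in Tg mice (adjusted p = 0.00209, edgeR). Eif4ebp2 of the initiation list, a repressor of cap-dependent initiation, fell by 0.80 in Tg mice. Sesn3 fell by 0.99 in WT mice. Of the 20 tested genes of this list 1 rose and 2 fell in WT mice, and 1 rose and 1 fell in Tg mice. Myc itself was not called in either, and its values went in opposite directions. It had 69.6 and 117 CPM in WT muscle, against 125 and 187 CPM in WT spleen Tregs. In Tg mice it had 148 and 126 CPM in muscle, against 96.3 and 70.4 CPM in injured spleen Tregs. Mxd4, a further Myc antagonist, was not called either, and its CPM was lower in muscle than in spleen in both. In the other comparisons no gene of these ribosome, translation and growth lists was called by edgeR.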

How the data were processed

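RNA-seq libraries were made from sorted Tregs and from whole muscle with oligo(dT) priming, PCR amplification and transposon fragmentation, per the labels' protocols, and read as paired 25 base reads; no step marked strand. The authors deposited one table of whole-number counts per gene symbol, aligned with STAR 2.5.4 to mm10 and counted with featureCounts, per the submitters' processing notes. Settings for annotation, strand and multimapping were not given in the sources used here, and reads from overlapping genes, pseudogenes and close paralogues may be split between rows. Of the table's sample columns 0 were left unused.

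CPM was the count over the library total. Tests used edgeR 4.0.16 (R 4.3.3) with low-count filtering by filterByExpr, TMM scaling and a robust quasi-likelihood fit, over 5 Treg groups (13188 genes) and separately over whole muscle (12377 genes), with Benjamini-Hochberg adjustment over all genes tested. Alternatives used DESeq2 1.42.0, limma-voom 3.58.1, other filters and scalings, fits of the compared groups only, a replicate block and single-library omissions. The test was checked on simulated data, with planted changes larger than most RP changes here and with genes drawn independently. That check does not cover small changes shared by many members. Floors were 3 counts and intervals exact Clopper-Pearson at 95%, for counting error only. Lengths were those of the APPRIS principal transcript in GENCODE M21, or the longest transcript; start sites were from RefSeq (GRCm38.p6).

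Named genes were the paralogue copies and their namesakes, Rplp0 to Rplp2, Rpsa, Rps6, Rps3, Rps19, Rpl5, Rpl11, Rpl4, and up to 5 called members per direction and comparison, and from each list up to 3 called genes by size and 1 uncalled gene by level; other genes were named after their values were seen. Some results that the rule would name are not reported here. The members and lists were chosen with earlier results of these data known.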

Additional observations from a re-analysis of the deposited data

How the results depend on the processing

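No called RP gene named in the text changed direction under the settings tried. The median of injured against uninjured Tg spleen Tregs, where 0 members were called, changed sign: it was 0.05, and -0.08 to 0.17 with single libraries left out. The main counts of called members were 34 for WT muscle against WT spleen Tregs, 2 for Tg muscle against injured Tg spleen Tregs, 2 for injured Tg against WT spleen Tregs and 0 elsewhere. Leaving out single libraries gave 11 to 29, 0 to 1 and 0 to 0 in the first 3 comparisons. Without a low-count filter the Tg tissue count was 4, the spleen count 9 and the Tg against WT muscle count 1 (Rpsa). The spleen count was 6 with a filter at 5 CPM in 2 libraries, 10 with DESeq2, 4 with limma-voom and 0 without robust dispersion. With library totals only, an alternative added after seeing the data, the counts were 56, 30 and 6. With only the compared groups in the fit they were 15, 4 and 6. Deviations of same-numbered samples correlated at -0.04 to 0.09 in Tregs and at -0.03 to -0.01 in whole muscle over all genes. The main fit did not take the numbers as pairs. Over the RP genes alone the correlations were -0.20 to 0.71 and 0.07 to 0.25, so the values over all genes do not settle pairing for these genes. With a replicate block the counts were 38, 7 and 7. Replicate 1 had the higher CPM for 72 to 83 of the 89 members in each of the 5 Treg groups. Rpl12 in the Tg tissue comparison, and Rpl35a and Rps24 in the spleen comparison, lost their calls without any one of the 4 libraries compared, and Rps4x did so in the WT tissue comparison. Having 2 libraries a group limits which small changes can be called. The causes of these shifts were not tested.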
